A study of Mus musculus with 6 samples.

Results

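Proneural and E-protein basic helix-loop-helix (bHLH) factors were followed in a comparison of mouse neural stem cells in which the transcription factor gene Sox4 was targeted. The list holds 8 genes, Neurog2, Neurod1, Tcf3, Tcf4, Tcf12, Bhlhe22, Bhlhe40 and Bhlhe41, which were taken by name from the 12316 gene rows of the authors' deposited table. Of these, 6 genes had a row, and Bhlhe22 had 2, which gives 7 rows in all. Neurog2 and Neurod1 had no row, neither under these names, nor under an older name in RefSeq, nor in a row naming several genes. The lack of a row does not show that a gene was not expressed. The genes that could be described are therefore 3 E protein genes and 3 Bhlhe genes, and no proneural gene of the list was among the rows analysed here.

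bHLH factors bind the E-box, a short DNA motif, as pairs. Proneural factors such as Neurog2 and Neurod1 drive neuronal differentiation and work mostly as pairs with an E protein, a broadly expressed partner encoded by Tcf3 (E2A), Tcf4 (E2-2) or Tcf12 (HEB). Id proteins bind E proteins without binding DNA and so withhold them, while most Hes and Hey proteins are repressors that act against proneural genes. Tcf3 and Tcf4 here are the bHLH genes and not the Wnt effectors Tcf7l1 and Tcf7l2, for which the same short names have been used.

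Per the labels, the cells were neural stem cells of CD-1 mouse embryos at E14.5, bought from a supplier and expanded on laminin with EGF and bFGF. All groups carried a lentiviral short hairpin RNA (shRNA) and were kept under puromycin at 0.5 µg/mL, and the labels give no change of genotype. The groups were Sox4 shRNA 1 and Sox4 shRNA 2, which target Sox4, and a scrambled shRNA, with 2 libraries each, numbered by passage. The design text mentions 1 shRNA against Sox4 where the labels give 2. Whether the passages count as independent cultures is not stated, and the p-values therefore reflect no more than library-to-library spread, possibly technical. Nor is it stated whether both Sox4 hairpins were pooled in 1 condition of the comparison. If they were, that spread includes differences between hairpins.

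The authors' deposited table gives each gene 1 level in each of 2 conditions that its header does not name, so every fold here is the second condition over the first, and neither condition could be tied to a hairpin. Levels are given as FPKM (fragments per kilobase of transcript, scaled to library size), the unit that Cuffdiff writes, although the header states none. The table holds no value per library, so no standard deviation or n can be attached to a level, and depth is unknown. Every row had the status OK, and the higher of its 2 levels was at least 0.636 FPKM. A gene or marker without a row therefore has no value here, and whether it was expressed cannot be said. A gene is termed called, and said to have risen or fallen, where the authors set their flag, which corresponds to a Cuffdiff q under 0.05. Sox4 itself stood at 83.9 FPKM in the second condition, against 127 FPKM in the first, in the authors' deposited table, and the Cuffdiff q of 0.0543 missed the threshold. Of 10 neural stem cell markers 9 had a row, of which 1 rose and 2 fell (summed level 3929 against 6144 FPKM in the second and first conditions, and 1643 against 1524 FPKM without Fabp7), and the 6 microglial, 6 fibroblast and 5 endothelial markers had none. The authors called 615 rows (4.99%), with 390 (3.17%) being higher in the second condition and 225 (1.83%) being lower.

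None of the 7 rows of the bHLH factors was called by Cuffdiff, and 0 had an unadjusted p under 0.05, which 17.5% of all rows had. At the share of 4.99% called over all rows, 7 rows would hold 0.35 calls, so a count of 0 does not set these genes apart. Their median log2 fold was -0.16, beside 0.00 over all rows, and 2 of the 7 rows had a positive fold, beside 50.5% of all rows. The log2 folds lay between -0.45 and 0.20. In both conditions the order of the levels was Tcf12, Tcf4, Tcf3, Bhlhe40, the first row of Bhlhe22, Bhlhe41 and the second row of Bhlhe22. Whether neighbours in this order differ beyond the spread between libraries cannot be said from 1 level per condition.

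**Figure D1:**
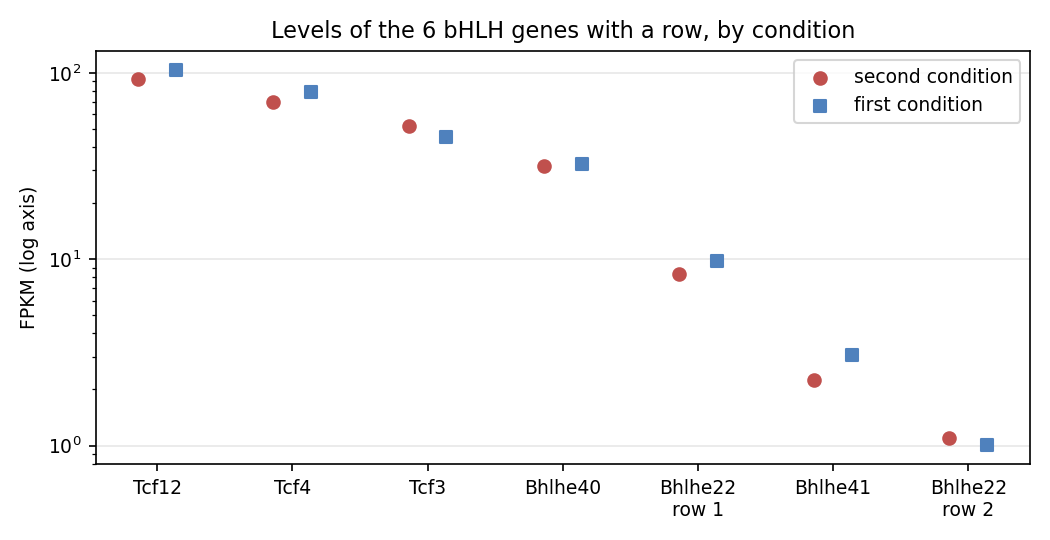
FPKM (log axis) of the 7 rows of the bHLH factors in the second condition (circles) and the first condition (squares), each point being the authors' single level for that condition, with no error. The order of the genes is the same in both conditions, from Tcf12 near 100 to the second row of Bhlhe22 near 1.

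The E protein genes were the most abundant of the list, and all 3 were present in both conditions. Tcf12 (chromosome 9, 71842688 to 72111871, minus strand, GRCm38) had 93.3 FPKM in the second condition and 104 FPKM in the first, by the authors' deposited table. Its mean level exceeded that of 92.7% of rows. The authors' log2 fold for Tcf12 was -0.16 (Cuffdiff p = 0.379, q = 0.743, in the authors' deposited table), so the second condition was 10.5% lower and the difference did not pass the test.

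Tcf4, whose loss of function affects neuronal development, stood at 69.6 FPKM in the second condition and at 78.5 FPKM in the first, per the authors' deposited table. The log2 fold of Tcf4 there was -0.17 (Cuffdiff p = 0.333, q = 0.709, the authors' deposited table). Tcf3 (chromosome 10, 80409514 to 80433647, minus strand) was the only E protein gene with the higher value in the second condition, at 51.7 FPKM against 45.0 FPKM in the first, as the authors' deposited table shows. The log2 fold of 0.20 for Tcf3 was not called either (Cuffdiff p = 0.273, q = 0.652, in the authors' deposited table).

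Summed over Tcf12, Tcf4 and Tcf3, the E protein level was 215 FPKM in the second condition and 228 FPKM in the first, as computed from the authors' deposited table, a log2 ratio of -0.09. Tcf12 made up 43.5% of that sum in the second condition and 45.8% in the first. The share of Tcf4 was 32.4% against 34.5%, and that of Tcf3 was 24.1% against 19.8%, again second condition against first. The ranking of the 3 genes was thus the same in both conditions. GENCODE lists 46 coding transcripts for Tcf4, 12 for Tcf3 and 11 for Tcf12, and the deposited level of each gene sums over its isoforms, so a shift between isoforms would not be seen here.

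Sequence upstream of transcription starts is shown for 3 genes of the list that have a RefSeq promoter entry, because members of this family are themselves E-box binders, and for Elavl4, a neuronal target gene that fell (values below). The E-box was searched as CANNTG, which reads the same on both strands, in the 250 bases before each start. Of 32851 such RefSeq windows (GRCm38.p6), 66.2% hold at least 1 match, 13.0% hold CAGCTG, and 6.02% hold CACGTG, the form that Bhlhe40 and Bhlhe41 prefer. CAGCTG and CACGTG are special cases of CANNTG, so these shares overlap. Each sequence is read 5′ to 3′ on the strand of the gene, leaves out bases inside GENCODE exons, and has its matches in capitals.
Tcf12 (chr9:72111203-72111451, minus strand): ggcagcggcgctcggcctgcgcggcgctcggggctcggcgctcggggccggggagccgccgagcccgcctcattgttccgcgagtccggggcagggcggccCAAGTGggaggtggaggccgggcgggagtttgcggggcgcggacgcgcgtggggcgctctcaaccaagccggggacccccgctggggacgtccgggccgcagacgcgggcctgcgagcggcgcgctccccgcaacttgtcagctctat
Tcf3 (chr10:80433648-80433885, minus strand): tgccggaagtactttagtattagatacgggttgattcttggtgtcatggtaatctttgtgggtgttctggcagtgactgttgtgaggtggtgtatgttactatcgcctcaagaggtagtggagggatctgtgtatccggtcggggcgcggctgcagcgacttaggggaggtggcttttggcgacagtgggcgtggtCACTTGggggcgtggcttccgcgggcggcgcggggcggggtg
Bhlhe41 (chr6:145865559-145865670, minus strand): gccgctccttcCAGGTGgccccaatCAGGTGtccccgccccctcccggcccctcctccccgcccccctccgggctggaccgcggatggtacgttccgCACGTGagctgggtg
Elavl4 (chr4:110287528-110287777, minus strand): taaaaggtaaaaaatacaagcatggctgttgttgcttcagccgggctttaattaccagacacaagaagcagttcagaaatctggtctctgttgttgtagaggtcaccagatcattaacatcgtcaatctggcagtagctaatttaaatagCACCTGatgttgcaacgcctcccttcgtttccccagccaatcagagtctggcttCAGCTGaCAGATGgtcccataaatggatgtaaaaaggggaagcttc

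The Tcf12 stretch, chosen among listed starts by most matches and then by the longest sequence outside exons, holds 1 match, CAAGTG. Another listed start of Tcf12 has CAGCTG in its window, and a further one has no match. The Tcf3 stretch holds 1 match, CACTTG. The Bhlhe41 stretch holds 3, of which 2 are CAGGTG and 1 is CACGTG with its first base 153 bases before the start. For Elavl4 the window shown is one of 4 listed starts, chosen as the longest stretch outside exons among those with the most matches. It has CACCTG farthest from the start, then CAGCTG and, closest to it, CAGATG. Another listed start of Elavl4 has the same matches in its window, a further one has only CATCTG, and the last has no match. Elavl4 was the only called target gene whose window is shown. Of the other called targets (values below), Dll3 has 2 matches in its window (CACCTG and CAGCTG), Ebf3 and Plxna2 have 0, and Rnd2 has no entry. The windows of Neurog2, with 0 matches, and Neurod1, with 1 (CATATG), have no expression value beside them. The genes of the list without an entry were Tcf4, Bhlhe22 and Bhlhe40. With 66.2% of all windows holding a match, these letters describe the windows and no more.

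Among the Bhlhe genes, Bhlhe40 was the most abundant and differed least. Bhlhe40 (DEC1) is a repressor that responds to many stimuli and dampens the circadian clock (chromosome 6, 108660629 to 108666925, plus strand). It had 31.5 FPKM in the second condition and 32.4 FPKM in the first, by the authors' deposited table. The log2 fold of Bhlhe40 was -0.04 (Cuffdiff p = 0.824, q = 0.955, in the authors' deposited table), and 10.5% of all rows had an absolute fold as small or smaller. Exons of Bhlhe40 overlap 0610040F04Rik on the other strand, and reads of both cannot be told apart unless counting used strand, which is not given in the sources used here.

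Bhlhe41 (DEC2), the close relative of Bhlhe40 with a similar clock role, showed the largest absolute fold of the list (chromosome 6, 145858243 to 145865558, minus strand). The authors' deposited table puts Bhlhe41 at 2.24 FPKM in the second condition, against 3.07 FPKM in the first. Its log2 fold was -0.45 with the lowest p of the list, yet it was not called (Cuffdiff p = 0.0600, q = 0.336, in the authors' deposited table). With q recomputed by Benjamini-Hochberg from the Cuffdiff p over all rows it was 0.316. The level is low, above only 16.2% of rows, and exons of Bhlhe41 overlap Gm43909 on the other strand. Bhlhe40 was 14.0 times as abundant as Bhlhe41 per length in the second condition and 10.6 times in the first.

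Bhlhe22, a repressor needed for the identity of certain neurons and for axon projection (chromosome 3, 18054174 to 18057517, plus strand), stood in 2 rows of the authors' deposited table. The first row had 8.29 FPKM in the second condition and 9.76 FPKM in the first, a log2 fold of -0.24 and q = 0.916 by Cuffdiff, both from the authors' deposited table. In the second row of the authors' deposited table Bhlhe22 had 1.10 FPKM in the second condition and 1.00 FPKM in the first, a log2 fold of 0.14 with a Cuffdiff q of 0.920. The signs of these rows differ, and neither row was called. Summed, Bhlhe22 had 9.39 FPKM in the second condition and 10.8 FPKM in the first, a log2 ratio of -0.20. GENCODE gives this gene 1 transcript, and the file does not say how its rows differ.

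The smallest change that Cuffdiff called at each level gives a rough guide to what could be called for these genes. Among the 1919 rows with a mean level of at least 50 FPKM, which include Tcf12 and Tcf4, the smallest absolute log2 fold called was 0.55. It was 0.56 among the 5054 rows between 10 and 50 FPKM, where Tcf3 and Bhlhe40 lie, and 0.58 among the 4661 rows between 1 and 10 FPKM, where Bhlhe22 and Bhlhe41 lie. Every row of the list stayed below the smallest called fold at its level. That fold is not a detection limit for each gene, since Id4, with a log2 fold of -0.70, was not called (Cuffdiff q = 0.0963). Larger differences in the bHLH factors could therefore also have gone uncalled, and the lack of a call does not show that differences are absent.

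**Figure D2:**
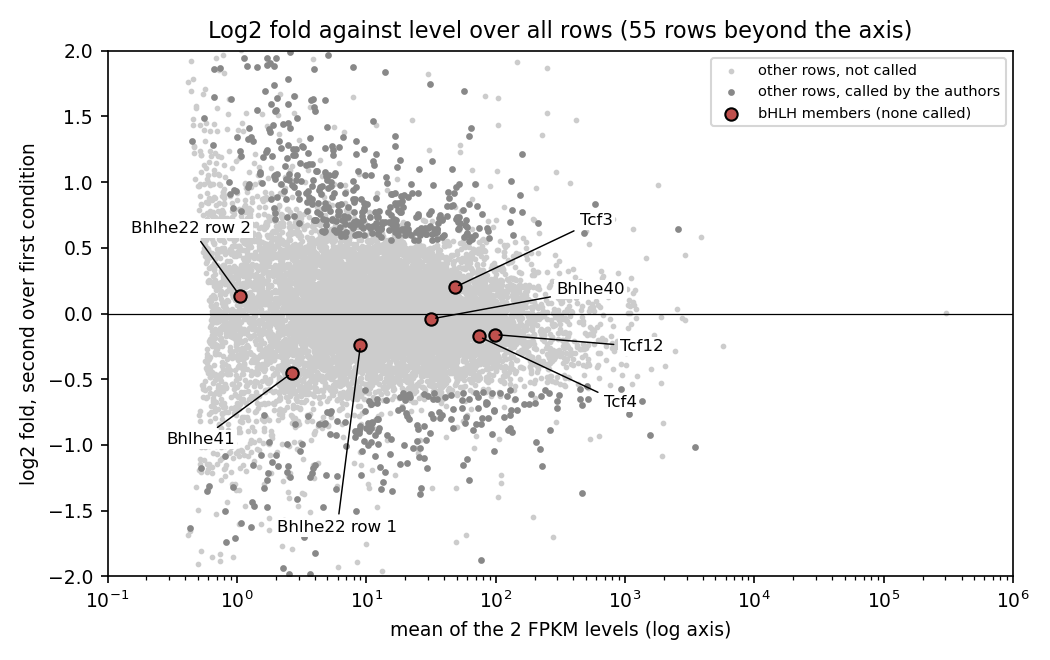
Log2 fold of the second over the first condition against the mean FPKM (log axis) for all 12316 rows, with rows the authors called in dark grey and the 7 rows of the bHLH factors in red. The 7 rows lie within the band of uncalled rows, between -0.45 and 0.20, and 55 rows lie beyond the plotted folds.

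The other proneural and neuronal bHLH genes considered, 14 in number and including Neurog1, Neurod2, Neurod4, Neurod6, Atoh1 and Nhlh1, had no row. Of the genes for the oligodendrocyte bHLH factors, Olig1 had 810 FPKM in the second condition and 937 FPKM in the first, and Olig2 had 333 FPKM against 381 FPKM, in the authors' deposited table. Neither was called (Cuffdiff q = 0.677 for Olig1 and 0.672 for Olig2, in the authors' deposited table), and Olig3 had no row. Of 9 markers of the oligodendrocyte lineage, Olig1 and Olig2 among them, 6 had a row, of which 0 rose and 2 fell (summed level 1217 against 1417 FPKM in the second and first conditions, and 407 against 480 FPKM without Olig1). Over all rows, 3.17% were called higher and 1.83% lower. Olig2 was 3.57 times as abundant as Tcf12 in the second condition and 3.66 times in the first.

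The genes for Id proteins, the inhibitors of E proteins, had lower levels in the second condition, where the E protein genes had nearly the same sum. All 4 Id genes had a negative fold, 2 fell, and their median log2 fold was -0.71, beside 0.00 over all rows and a share of 1.83% of rows called lower. Id2 fell to 38.0 FPKM in the second condition, against 81.9 FPKM in the first, by the authors' deposited table (Cuffdiff q = 0.00304). Id3 fell to 55.7 FPKM in the second condition, against 91.4 FPKM in the first, by the authors' deposited table (Cuffdiff q = 0.0135). Id4 had 6.55 against 10.7 FPKM and Id1 4.56 against 6.65 FPKM, second against first, in the authors' deposited table, and neither was called (Cuffdiff q = 0.0963 and 0.416).

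The summed Id level was 105 FPKM in the second condition and 191 FPKM in the first, a log2 ratio of -0.86. The ratio of summed E protein to summed Id level was therefore 2.05 in the second condition and 1.19 in the first. This ratio is of RNA levels per length, has no error and was not tested, and Id2 and Id3 make up most of the Id sum. In bulk samples, fewer cells of a type and less RNA per cell cannot be told apart. Astrocytes express Id genes too. Of 7 astrocyte markers 3 fell and 1, Aldh1l1, rose, beside 1.83% of all rows called lower and 3.17% called higher. The summed level of these markers was 927 against 1321 FPKM in the second and first conditions. Without Aldoc, which was not called, it was 131 against 220 FPKM. The part of astrocytes in the Id values was not tested.

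**Figure D3:**
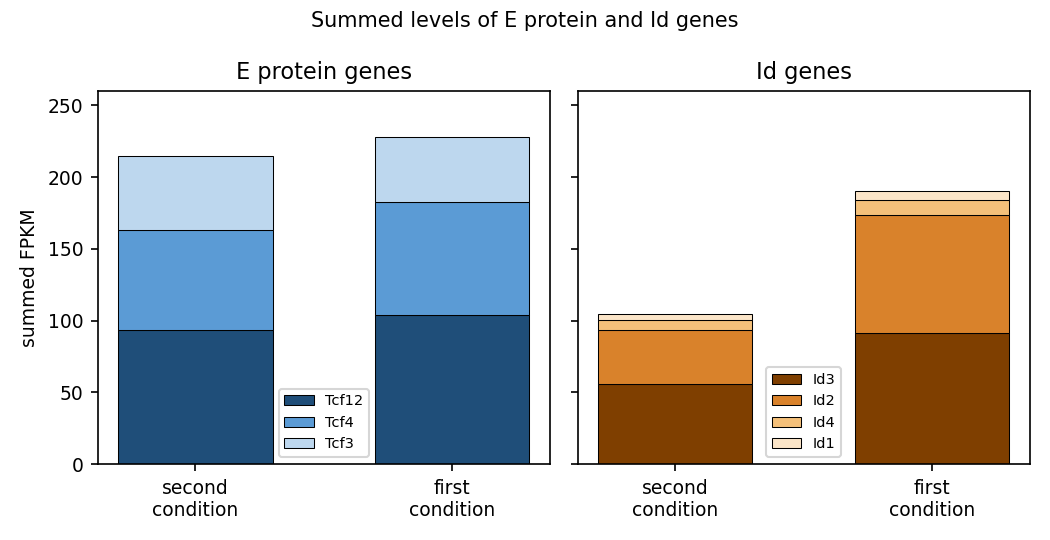
Summed FPKM of the E protein genes (left panel) and of the Id genes (right panel) in the second and first conditions, stacked by gene on axes that start at 0. The E protein sums are 215 and 228 FPKM, and the Id sums are 105 and 191 FPKM.

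Hes and Hey genes, most of which encode repressors of proneural genes, all had a negative fold in the 6 that had a row, of 10 listed. These 6 include Hes6, which acts otherwise (below). Their median log2 fold was -0.54, beside 0.00 over all rows, where 50.5% of folds were positive. Of the 6, 1 was called, beside 1.83% of all rows called lower. Hes5 fell to 14.4 FPKM in the second condition, against 37.3 FPKM in the first (the authors' deposited table, Cuffdiff q = 0.00304). Hey1 had 31.5 against 43.7 FPKM and Hes1 10.6 against 14.8 FPKM, second against first, in the authors' deposited table, and they were not called. Hes6, which opposes Hes1 and is itself induced by proneural factors, had 31.5 FPKM in the second condition and 37.4 FPKM in the first in the authors' deposited table, also not called. Exons of Hes5 overlap Gm20421 on the other strand. Of 22 other genes listed under the bHLH classes that pair with E proteins and their relatives, 20 had no row. Twist1, a mesodermal factor, fell to 0.515 FPKM in the second condition, against 2.73 FPKM in the first (the authors' deposited table, Cuffdiff q = 0.00708). Its mean level is low, above only 10.1% of rows. Tcf25, the other gene of that list with a row, had 74.3 FPKM in the second condition and 76.2 FPKM in the first by the authors' deposited table (Cuffdiff q = 0.959). Tcf25 shares the TCF name, and its place in these bHLH classes was not checked.

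Of 12 co-regulators of E proteins with a row, of 15 listed, 1 rose and 0 fell, beside 3.17% and 1.83% of all rows. Their median log2 fold was -0.01, and 6 of 12 folds were positive, beside 50.5% of all rows. Crebbp, the gene for the acetyltransferase CBP that E proteins recruit, rose to 14.7 FPKM in the second condition, against 8.61 FPKM in the first (the authors' deposited table, Cuffdiff q = 0.00304). Lmo4, which encodes an adaptor between bHLH factors and Ldb1, had 59.3 FPKM in the second condition and 81.8 FPKM in the first, and was not called in the authors' deposited table (Cuffdiff q = 0.143). Ldb1 and Ssbp3, further parts of that adaptor complex, had log2 folds of -0.06 and 0.04 in the authors' deposited table and were not called.

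Of 22 genes known as targets of proneural factors with a row, of 32 listed, 2 rose and 3 fell, beside 3.17% of all rows called higher and 1.83% called lower. Of their 23 rows 6 had a positive fold, beside 50.5% of all rows, and the median log2 fold was -0.25. The falls were Dll3, a Notch ligand gene, Rnd2, a GTPase gene that Neurog2 induces in migrating neurons, and Elavl4, a neuronal RNA-binding protein gene. Rnd2 fell to 17.8 FPKM in the second condition, against 38.1 FPKM in the first, by the authors' deposited table (Cuffdiff q = 0.00304). Elavl4 fell to 2.13 FPKM in the second condition, against 4.24 FPKM in the first, by the authors' deposited table (Cuffdiff q = 0.00892). Dll3 fell to 7.61 FPKM in the second condition, against 23.4 FPKM in the first, by the authors' deposited table (Cuffdiff q = 0.00304). Exons of Rnd2 overlap Vat1 on the other strand.

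The rises among the targets were Plxna2, a semaphorin co-receptor gene, and Ebf3, a transcription factor gene of differentiating neurons. Plxna2 rose to 8.51 FPKM in the second condition, against 5.32 FPKM in the first (the authors' deposited table, Cuffdiff q = 0.0174). Ebf3 rose to 2.64 FPKM in the second condition, against 1.30 FPKM in the first (the authors' deposited table, Cuffdiff q = 0.0162), and its exons overlap Gm45278 on the other strand. Dll1, another Notch ligand gene and a classic target, had 28.7 FPKM in the second condition and 28.8 FPKM in the first (the authors' deposited table) and passed no threshold. Dcx, Eomes, Tbr1, Stmn2, Nhlh1 and Neurod4, further neuronal targets, had no row. Of 10 neuron markers 8 had a row, of which 1, Elavl4, fell and 0 rose (summed level 169 against 172 FPKM in the second and first conditions, and 41.8 against 49.6 FPKM without Map2, which was not called). Beside these counts, 3.17% of all rows were called higher and 1.83% lower.

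Clock genes, among which are those that Bhlhe40 and Bhlhe41 repress, had 1 rise and 1 fall among 19 with a row, of 20 listed. Over all rows, 3.17% were called higher and 1.83% lower. The median log2 fold of the clock genes was 0.17, and 14 of 20 rows had a positive fold, again beside 50.5% of all rows. Arntl, which encodes the bHLH-PAS activator BMAL1, fell to 14.4 FPKM in the second condition, against 22.3 FPKM in the first (the authors' deposited table, Cuffdiff q = 0.0434). Nr1d2, which encodes REV-ERB beta, a repressor of Arntl, rose to 10.02 FPKM in the second condition, against 6.18 FPKM in the first (the authors' deposited table, Cuffdiff q = 0.0280). The more abundant row of its paralog Nr1d1 had 92.1 against 114 FPKM, second against first, in the authors' deposited table, but without a call (Cuffdiff q = 0.521). The other row of Nr1d1 had the opposite sign there, with 12.8 against 8.83 FPKM, a log2 fold of 0.54, and was not called either (Cuffdiff q = 0.458). Both clock calls lie near the threshold, and exons of Arntl overlap Gm45355 on the other strand.

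**Figure D4:**
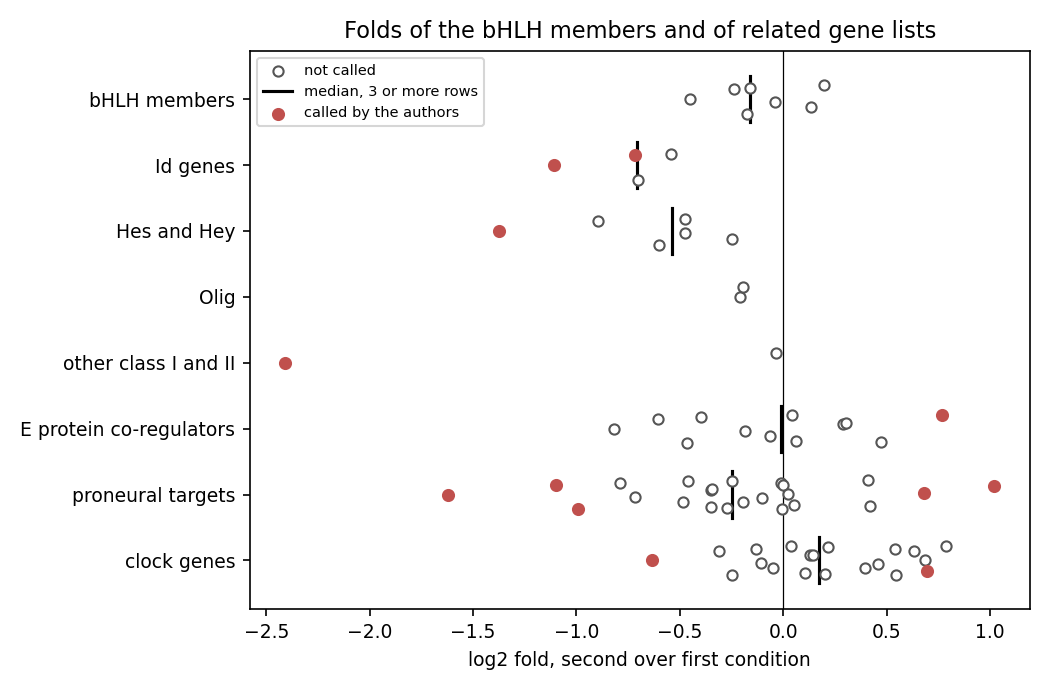
Log2 fold of the second over the first condition for each row of the bHLH factors and of related gene lists, with called rows filled, other rows open, and a bar at the median of lists with 3 or more rows. All Id, Hes and Hey rows lie below 0, while the bHLH factors lie between -0.45 and 0.20 with none called.

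Over the 9 related lists with a row, 13 of 95 genes with a row were called, 4 higher and 9 lower, which is 13.4% of their rows beside 4.99% of all rows. Since the lists were chosen with earlier results known, nothing is read from that share. The longest transcripts of the 4 that were higher have 4663 to 11040 nt (median 7907 nt). Those of the 9 that were lower have 1273 to 5036 nt (median 1969 nt), so the ranges overlap. Of the 4 that were higher, 2 are among the longest 10% of transcripts, and of the 9 that were lower, 0. Among the 11693 rows whose symbol matched a GENCODE name, and so have a length, calls leaned the same way: in the longest 10% of transcripts 156 rows were called higher and 16 lower, and in the others 213 higher and 204 lower. The part of transcript length in these directions was not tested. The longest transcripts of Tcf12, Tcf4 and Tcf3 have 6299, 8577 and 2950 nt.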

How the data were processed

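Poly(A) RNA of 6 libraries of transduced mouse neural stem cells was sequenced from SOLiD Total RNA-Seq libraries, per the labels' protocols. Reads were handled with TopHat2 2.0.9 on mm10, Cufflinks 2.2.1 and Cuffdiff, as listed in the submitters' processing notes, which leave the annotation, the strand setting and the libraries behind each condition not given in the sources used here. Per the file headers, the authors' deposited table holds 2 levels per gene, taken as FPKM because Cuffdiff writes that unit. The deposited columns also hold a log2 fold, a test statistic, which is a score not used here, a p-value, its q-value, and a significance flag.

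All 12316 rows have status OK, 82 name several genes, and 1 line is blank. No condition was assigned from values or column order. The authors' calls were used as they stand. Added here were medians, sums, ratios, Benjamini-Hochberg q-values recomputed from the deposited Cuffdiff p (tested on simulated data), and pseudocounts of 1 and 0.1, with Python 3.11.15, numpy 2.4.6 and pandas 2.3.3. Positions, transcripts and exon overlaps came from GENCODE M21 (GRCm38), which may differ from the authors' annotation, and promoters from RefSeq (GRCm38.p6).

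The members and lists were chosen with earlier results of these data known. Genes named were all members, Sox4, every called gene of a list, up to 3 of its most abundant other genes, and every Id, proneural and Olig gene with a row. Other genes are named only as markers of a cell type, as overlapping a named gene, or as lacking a row. Some results are not reported here.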

Additional observations from a re-analysis of the deposited data

How the results depend on the processing

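The count of 0 called rows among the bHLH factors was the same under each alternative run: a q under 0.01, an absolute log2 fold of at least 1, Benjamini-Hochberg values over all rows or over rows at 1 FPKM or more, and the flag within those rows. The stricter q, the fold minimum and the flag within those rows can only remove calls, so they test little. The median log2 fold of -0.16 ranged from -0.17 to -0.16. The 2 positive folds became 1 when the levels of both Bhlhe22 rows were summed, an alternative chosen after seeing the data. With a pseudocount, 13 of 14 log2 folds stayed within 1.5 times, and that of the second Bhlhe22 row, 0.14, became 0.07. At a q under 0.01, as a stricter threshold must give, the 13 called genes of the related lists became 8, the 4 rises 1, and the 9 falls 7. No paired analysis was possible because library values by passage are not part of the deposited comparison. The block on passage and leaving out each library were not run for the same reason. Depth is unknown and sets no stated limit.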

Other observations

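More distant bHLH families were described from lists fixed with earlier results known, and 4.99% of all rows were called. Of 20 bHLH leucine zipper genes with a row, of 23 listed, 0 rose and 1 fell, with a median log2 fold of 0.10. Mxi1, a MAX partner that acts against MYC, fell to 6.15 FPKM in the second condition, against 11.4 FPKM in the first, by the authors' deposited table (Cuffdiff q = 0.00304), and its exons overlap Gm10197 on the other strand. The most abundant others were Mxd4, with 160 FPKM in the second condition and 186 FPKM in the first, Srebf2, with 133 against 114 FPKM, and Srebf1, a regulator of lipid synthesis, with 129 against 88.0 FPKM in the authors' deposited table. None of these 3 was called by Cuffdiff (q = 0.608, 0.681 and 0.0769 in the authors' deposited table).

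Of 11 bHLH-PAS genes with a row, of 19 listed, 0 rose and 1, Arntl, fell, with a median log2 fold of 0.27. The genes for the hypoxia factor Hif1a, with 47.7 FPKM in the second condition and 50.3 FPKM in the first, and for Arnt2, a neural dimer partner of that family, with 39.7 against 32.9 FPKM, were not called in the authors' deposited table. Npas3, a factor of brain development, had 28.3 FPKM in the second condition and 25.3 FPKM in the first (the authors' deposited table) and passed no threshold.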
